A study of Mus musculus with 37 samples.

Results

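Brown adipose tissue (BAT) was compared between BXD strains with a high and a low *Dbp* minus *Arntl*, which are output and core genes of the circadian clock. The strains were chosen by these measured values: *Dbp* minus *Arntl* was computed for each of the 35 BXD strains, and the 12 with the highest and the 12 with the lowest result formed the groups, so that 24 of the 37 arrays entered the comparison. The other arrays came from 11 strains between the groups and from C57BL/6J and DBA/2J, the parents of the BXD lines. BXD strains are recombinant inbred and carry fixed mixtures of the alleles of these parents.

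All mice were males fed a chow diet, aged 29 weeks by the labels, fasted overnight and perfused under isoflurane before the tissue was frozen. No treatment separated the groups, and a strain entered a group by its measured *Dbp* and *Arntl* alone. Each array held the RNA of about 5 mice of a strain, pooled in equal amounts, so there is no replicate within a strain and the strains serve as the replicates of a group. No hour of death is given for the single strains, so that strain genotype and time of day cannot be told apart. Values are array scores, called units here, which have a mean of 8 and an SD of 2 on every array. A unit equals a doubling only if the SD was 2 on a log2 scale before the rescaling, and folds given here as nominal rest on that assumption.

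In the mammalian clock, CLOCK or NPAS2 pairs with BMAL1, the product of *Arntl*, and activates genes with E-boxes, which include the *Per* and *Cry* genes, *Nr1d1*, *Nr1d2* and *Dbp*. PER and CRY proteins repress this activation. The nuclear receptors REV-ERB-alpha and REV-ERB-beta, encoded by *Nr1d1* and *Nr1d2*, repress *Arntl*, *Npas2*, *Cry1* and *Nfil3* through RRE elements, at which ROR receptors activate. DBP, TEF and HLF activate at D-boxes, where NFIL3 represses. *Dbp* and *Arntl* transcripts therefore peak at nearly opposite times of day in peripheral tissues, brown fat among them.

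A few stretches of promoter sequence show the elements of this circuit in the genes on which the results turn. They were taken from RefSeq windows of build GRCm38.p6 that run from 250 bases before to 50 bases after a transcript start, in the direction of the gene, with the matching letters in capitals. The window of *Arntl* held the RRE core TAGGTCA, and that of *Nfil3* held it on the opposite strand, read as TGACCTA. *Nr1d1* held the E-box variant CACGTT on the opposite strand, and *Per3* held the D-box TTATGTAA at 2 places. The windows, at chr7:113207530-113207558 (plus strand), chr13:52981034-52981062, chr11:98775389-98775416, chr4:151044852-151044881 and chr4:151044805-151044834 (all minus strand), read in this order:
Arntl RRE: aaggcagaaagTAGGTCAgggacggaggt
Nfil3 RRE: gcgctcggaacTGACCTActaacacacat
Nr1d1 E-box variant: gcacagatctcAACGTGccggctgctgg
Per3 D-box, upstream: cgacccgcgcgTTATGTAAggtactcgggg
Per3 D-box, downstream: cccgcccgcggTTATGTAAcccccgccgtg

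Searched on both strands, TAGGTCA was in 2.61% of all 32851 promoter windows, CACGTT in 4.68%, the E-box CACGTG in 7.15%, and the D-box TTATGTAA or TTACGTAA in 1.06%. The window of *Nr1d2* held none of these letters. Of the clock genes described below, CACGTG was also found in *Cry1*, *Per1*, *Tef*, *Bhlhe41* and, at 3 places, *Ciart*. Windows were given for 11 of the 14 genes listed on the side of *Dbp* and for 4 of the 5 on the side of *Arntl*. None of these motifs contains another, and a match is a description of the letters and not a measured binding site.

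The values that chose the strains are given as a description with no test. *Dbp* minus *Arntl* lay between -0.88 and 0.31 in the high group (median -0.47) and between -1.93 and -1.29 in the low group (median -1.43). *Dbp*, a D-box activator, had 9.12, 9.42 and 9.99 as lowest, median and highest value in the high group, and 8.57, 8.85 and 9.13 in the low group. *Arntl*, which encodes BMAL1, had 9.47, 9.89 and 10.05 in the high group and 10.15, 10.35 and 10.75 in the low group. The groups did not overlap in *Arntl* and overlapped in *Dbp* by a single strain of each, BXD90 of the high and BXD68 of the low group. The mean difference was 0.60 units for *Dbp* and -0.58 units for *Arntl*, each a nominal 1.5-fold.

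The highest values of *Dbp* minus *Arntl* were those of BXD95, BXD45 and BXD55, and the lowest were those of BXD87, BXD69 and BXD61. The values ran on without a gap at the limits of the groups. BXD80, the last strain of the high group, had -0.88 and BXD85, just outside it, -0.89. BXD89, the last strain of the low group, had -1.29 and BXD79, just outside it, -1.23. The parents, with 1 array each, lay among or near the middle strains in *Dbp*, at 9.21 in C57BL/6J and 9.16 in DBA/2J, and differed in *Arntl*, at 10.33 and 9.95. The data hold no time course, and a range of 1.42 units in *Dbp* over 35 strains does not show opposite phases, so the groups are called here by their high or low *Dbp* minus *Arntl*.

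**Figure D1:**
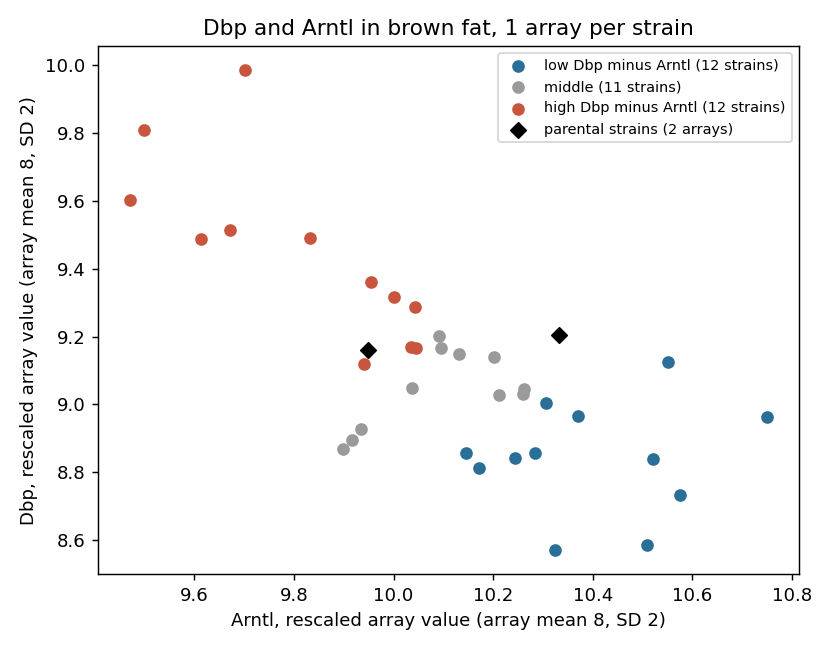
*Dbp* (vertical axis) against *Arntl* (horizontal axis), both in rescaled array units, with 1 point per array, coloured by group. The strains form a continuous band from low *Dbp* with high *Arntl* (BXD61 at 10.75 in *Arntl*) to high *Dbp* with low *Arntl* (BXD55 at 9.47), and the parents lie within or just above it.

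Whether other transcripts differ between the groups was tested over the 41153 probe sets of all genes other than *Dbp* and *Arntl*. No transcript passed the threshold of an adjusted p of 0.05 in limma (0.0% of those tested), and *Nr1d2* and *Nr1d1* had the lowest adjusted p, 0.0568 each. At an unadjusted p under 0.05, 2448 probe sets stood out (5.95%), of which 1294 were higher in the high group (3.14%) and 1154 lower (2.8%). The t-test named in the methods gave 2447 at an unadjusted p under 0.05 and 0 after Benjamini-Hochberg adjustment. The median difference over all probe sets was 0.0011 units and the median size of a difference 0.0632 units. No probe set had groups that did not overlap.

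The largest differences in the clock were those of the REV-ERB genes. *Nr1d1*, which encodes REV-ERB-alpha, had 12.45, 12.70 and 12.95 as lowest, median and highest value in the high group, against 11.61, 12.18 and 12.59 in the low group. In *Nr1d1*, 10 of the 12 low strains lay below every high strain, and BXD66 and BXD103 did not. The mean difference was 0.58 ± 0.097 units (SE, 12 strains a group), a nominal 1.5-fold. *Nr1d2*, which encodes REV-ERB-beta, had 9.93, 10.09 and 10.64 in the high group and 9.32, 9.47 and 10.04 in the low group. In *Nr1d2*, 10 of the 12 low strains again lay below every high strain, and BXD96 and BXD103 did not. Its mean difference was 0.57 ± 0.095 units. With each of the 24 strains left out in turn, the adjusted p ran from 0.0178 to 0.158 for *Nr1d1* (median 0.14) and from 0.0217 to 0.158 for *Nr1d2* (median 0.126). Each passed the threshold in 2 of these 24 fits, *Nr1d1* without BXD66 or BXD103 and *Nr1d2* without BXD96 or BXD103. The difference itself stayed between 0.53 and 0.62 units for *Nr1d1* and between 0.53 and 0.61 units for *Nr1d2*.

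Among the repressors of the *Per* family, *Per3* had 9.60, 9.88 and 10.17 as lowest, median and highest value in the high group and 8.96, 9.39 and 9.87 in the low group. 8 of the 12 low strains lay below every high strain, and the mean difference was 0.43 ± 0.097 units (limma, unadjusted p = 0.000147, adjusted p = 0.755). *Per2* had 8.72, 9.22 and 9.70 in the high group and 8.56, 8.96 and 9.39 in the low group, so that the groups overlapped over most of their range. Its difference was 0.31 ± 0.11 units (limma, unadjusted p = 0.0116, adjusted p = 0.825). *Per1*, which also responds to glucocorticoids, differed by 0.07 ± 0.14 units (limma, unadjusted p = 0.62, adjusted p = 0.966). The *Per* genes thus ranged from 0.07 to 0.43 units, and the differences between them were not tested.

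The genes of the list on the side of *Dbp*, which peak nearer to *Dbp* than to *Arntl*, were 14 in number and all were measured. Of these, 0 passed the threshold, 7 were higher in the high group at an unadjusted p under 0.05 (3.14% of all probe sets were), 0 were lower, and 11 had a positive difference. Their median difference was 0.19 units. Beside *Nr1d1*, *Nr1d2*, *Per3* and *Per2*, the 7 held *Bhlhe41*, a repressor at E-boxes, with 0.32 ± 0.11 units, the D-box activator *Tef* with 0.20 ± 0.081 units, and *Ciart*, a repressor listed on the array as *Gm129*, with 0.18 ± 0.082 units. *Bhlhe40*, the paralog of *Bhlhe41*, differed by 0.27 ± 0.14 units (limma, unadjusted p = 0.0632, adjusted p = 0.839). *Hlf*, another D-box activator, differed by 0.08 ± 0.089 units, and *Wee1*, a cell cycle kinase under clock control, by 0.14 ± 0.13 units. The differences of *Cry2* (-0.01 units), the ubiquitin protease *Usp2* (-0.0049 units) and *Tsc22d3* (-0.15 units), which also responds to glucocorticoids, lay within 2 standard errors of 0.

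On the side of *Arntl*, the list held 5 genes, of which 0 passed the threshold, 3 were lower in the high group at an unadjusted p under 0.05 (2.8% of all probe sets were), and all 5 had a negative difference, with a median of -0.25 units. *Nfil3*, the repressor at D-boxes, had 9.40, 9.68 and 9.85 as lowest, median and highest value in the high group and 9.67, 10.17 and 10.42 in the low group. In *Nfil3*, 9 of the 12 low strains lay above every high strain, and BXD96, BXD103 and BXD101 did not. Its mean difference was -0.45 ± 0.088 units (limma, unadjusted p = 2.76e-05, adjusted p = 0.379). *Npas2*, the partner of BMAL1 that can stand in for CLOCK, had 8.64, 9.21 and 9.55 in the high group and 9.18, 9.52 and 10.29 in the low group. The difference of *Npas2* was -0.38 ± 0.11 units (limma, unadjusted p = 0.00132, adjusted p = 0.771).

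*Cry1*, a repressor whose peak comes later than that of the *Per* genes, had 8.29, 8.70 and 9.07 in the high group and 8.58, 8.93 and 9.26 in the low group. Its difference was -0.25 ± 0.083 units (limma, unadjusted p = 0.00622, adjusted p = 0.807), with groups that overlapped over most of their range. *Clock* itself differed by -0.05 ± 0.051 units. *Clock* was more narrowly spread than *Npas2*, with an SD of 0.11 units within both groups.

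**Figure D2:**
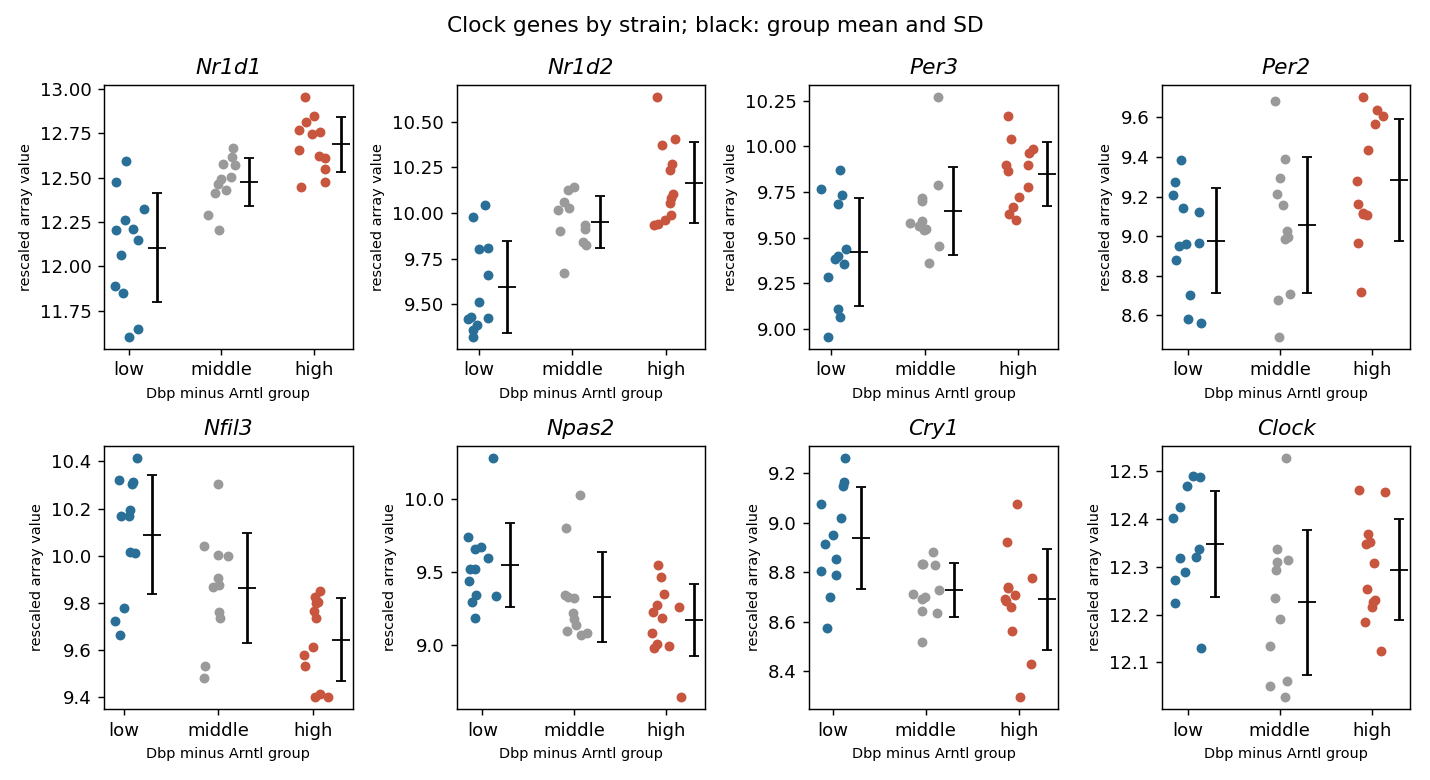
Rescaled array values (vertical axes) of 8 clock genes in the low, middle and high strains, with 1 point per strain and the group mean ± SD in black beside the points. In *Nr1d1* and *Nr1d2*, 10 of the 12 low strains lie below every high strain, while the groups overlap widely in *Clock*.

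**Figure D3:**
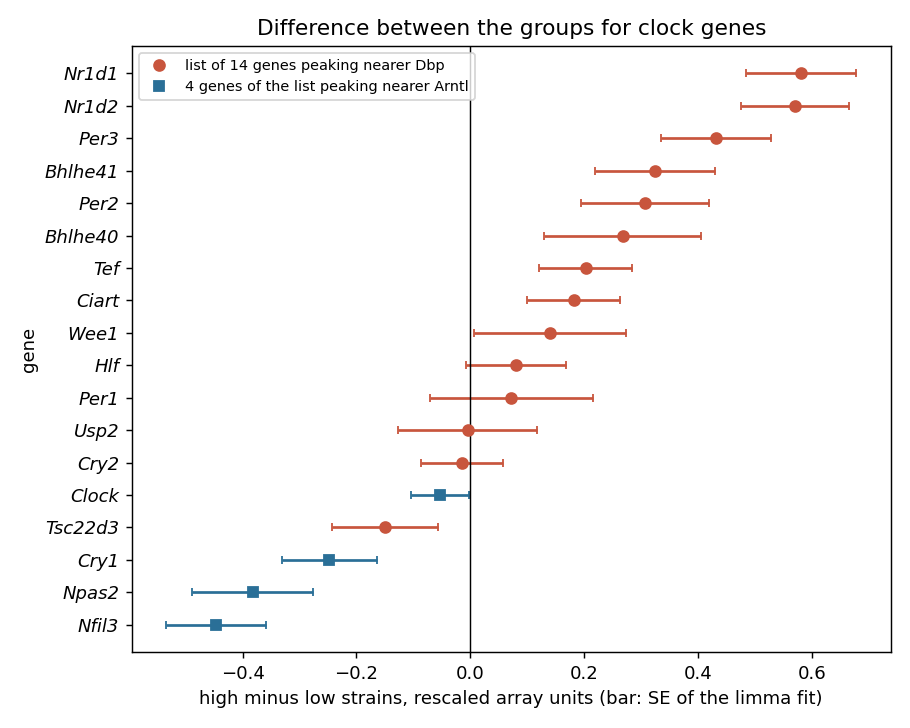
Mean difference of high minus low strains (horizontal axis, rescaled array units) with its SE from limma for the 14 clock genes on the side of *Dbp* and 4 on the side of *Arntl*. The differences run from 0.58 units for *Nr1d1* to -0.45 units for *Nfil3*, and the 4 genes on the side of *Arntl* are negative.

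Some strains stood apart from the others of their group in several clock genes together. BXD103, of the low group, had 12.48 in *Nr1d1*, 9.98 in *Nr1d2*, 9.87 in *Per3* and 9.72 in *Nfil3*, all of them within the range of the high group. Its *Cry1* (8.58) was the lowest of the low group, but most low strains lay within the high range in that gene. BXD96, also of the low group, had 10.04 in *Nr1d2* and 9.67 in *Nfil3*, both within the range of the high group. In *Per3* BXD96 had 9.38, below that range. At the other end, BXD61 had the lowest *Nr1d1* (11.61), *Nr1d2* (9.32) and *Per3* (8.96) of the 35 strains beside their highest *Arntl*. BXD95 had their highest *Nr1d1* (12.95) and *Nr1d2* (10.64) and their lowest *Npas2* (8.64).

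Since the groups were cut from a continuous measure, *Dbp* minus *Arntl* was also fitted as a continuous covariate over all 35 BXD strains, an alternative that was planned with the comparison. In this fit 5 of the 41153 probe sets passed an adjusted p of 0.05 (0.0121%), and 4 of the 5 were clock genes. *Nr1d2* rose by 0.47 ± 0.052 units per unit of *Dbp* minus *Arntl* (adjusted p = 3.87e-06) and *Nr1d1* by 0.45 ± 0.058 units (adjusted p = 5.95e-05). *Nfil3* had a slope of -0.36 ± 0.059 units (adjusted p = 0.00806), so that it fell as *Dbp* minus *Arntl* rose. *Per3* rose by 0.35 ± 0.065 units (adjusted p = 0.0441). The remaining call was *Evi5*, which encodes a GTPase-activating protein for Rab proteins, with 0.22 ± 0.041 units (adjusted p = 0.0441).

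With each of the 35 strains left out in turn, *Nr1d2*, *Nr1d1* and *Nfil3* passed the threshold in 35 of 35 fits. *Per3* passed only without BXD45, BXD48, BXD51, BXD55, BXD64, BXD83, BXD89 or BXD103, and *Evi5* only without BXD49, BXD55, BXD56, BXD61, BXD64, BXD71, BXD85 or BXD89, which is 8 of 35 fits each. Without the 2 strains farthest from the median, *Nfil3* had a slope of -0.36 units and an adjusted p of 0.136. The lists held 3 called genes of 14 on the side of *Dbp* and 1 of 5 on the side of *Arntl*. 24 of the strains are those of the 2 groups, so the continuous fit is not independent of the comparison above.

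**Figure D4:**
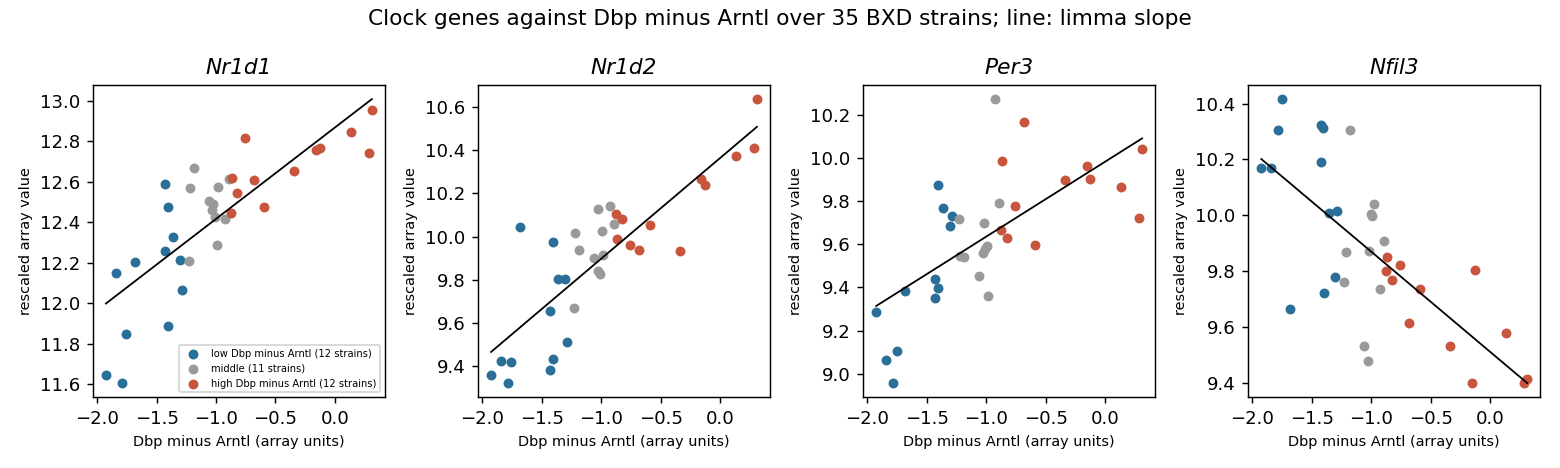
Rescaled array values of *Nr1d1*, *Nr1d2*, *Per3* and *Nfil3* (vertical axes) against *Dbp* minus *Arntl* (horizontal axes, rescaled array units) in 35 BXD strains, coloured by group, with the slope fitted by limma as a black line. The slopes are 0.45, 0.47, 0.35 and -0.36 units per unit.

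*Dbp* and *Arntl* were also fitted on their own as continuous covariates over the 35 strains, with p-values adjusted over all 41153 probe sets, a choice made after seeing the data. With *Dbp*, 2 transcripts passed an adjusted p of 0.05 (0.00486%), and both were of the 19 clock genes. *Nr1d2* rose by 0.76 ± 0.11 units per unit of *Dbp* (adjusted p = 0.00409) and *Nr1d1* by 0.74 ± 0.12 units (adjusted p = 0.0115). With *Arntl*, 23 transcripts passed (0.0559%), of which 4 were clock genes. *Nr1d2* fell by 0.87 ± 0.10 units per unit of *Arntl* (adjusted p = 1.64e-05), *Nr1d1* by 0.84 ± 0.12 units (adjusted p = 0.000252) and *Per3* by 0.69 ± 0.12 units (adjusted p = 0.0194), while *Nfil3* rose by 0.65 ± 0.12 units (adjusted p = 0.0233).

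Against *Dbp*, *Nfil3* had a slope of -0.61 ± 0.12 units, and *Bhlhe41* one of 0.61 ± 0.12 units (adjusted p = 0.0822 each). The slope of *Per2* on *Arntl* was -0.55 ± 0.16 units (adjusted p = 0.157), that of *Npas2* 0.52 ± 0.16 units (adjusted p = 0.188) and that of *Cry1* 0.31 ± 0.11 units (adjusted p = 0.242). Whether these genes differ in their relation to *Dbp* and to *Arntl* was not tested. The strains and the values of *Dbp* and *Arntl* are those of the fit above, so these slopes are not independent of it.

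The 11 strains between the groups were not used by the comparison. Within them *Dbp* minus *Arntl* ran from -1.23 to -0.89 only. None of the 19 clock genes had a permutation p under 0.05 there, before any adjustment. Against *Dbp* minus *Arntl*, *Nr1d2* had a Pearson's r of 0.51 (Spearman's rho = 0.55, 2-sided permutation p = 0.111 and 0.0871), and r was 0.43 without the 2 strains farthest from the median. *Nr1d1* had r = 0.10 (permutation p = 0.781), which turned to -0.31 without these 2 strains. *Nfil3* had r = -0.10 (permutation p = 0.7685) but a rho of 0.22. The largest r in size among the 19 genes was that of *Tsc22d3*, at -0.52 (permutation p = 0.0965). So narrow a range limits what these strains can show.

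Skeletal muscle transcripts had lower means in the high strains. All 12 genes of the muscle list were measured, and their mean level ran from 10.04 to 12.82 units in the high group and from 11.49 to 13.30 units in the low group, above the 95th percentile of olfactory receptor probe sets (7.94 units), which served as background. 11 of the 12 were lower in the high group at an unadjusted p under 0.05 (2.8% of all probe sets were), 0 passed the adjusted threshold, and the median difference was -0.73 units. The difference was largest for *Myh2*, a fast myosin heavy chain, at -0.89 ± 0.40 units, and smallest for *Myl1*, a fast myosin light chain, at -0.08 ± 0.096 units. BXD65, of the high group, was the lowest of the 24 strains in 11 of the 12 genes. Without it 4 of the 12 remained under an unadjusted p of 0.05 and the median difference was -0.54 units. Of all probe sets 6.24% were under it in that fit, in either direction. Genes of a list can vary together over the strains, here and in the clock lists, so such counts are not counts of independent results. In whole tissue, fewer cells of a type and less RNA per cell cannot be told apart.

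With the mean of the muscle list as a covariate, the difference was 0.54 units for *Nr1d1*, 0.57 units for *Nr1d2* and -0.43 units for *Nfil3*, nearly as large as without it, and their adjusted p was 0.728, 0.654 and 0.9999. In the continuous fit with this covariate *Nr1d2*, *Nr1d1* and *Nfil3* still passed the threshold, and *Per3* and *Evi5* did not (adjusted p = 0.212 each). Without BXD65, an unadjusted p under 0.05 was reached by 7 of 14 genes on the side of *Dbp* and 3 of 5 on that of *Arntl*. Of all probe sets 6.24% reached it in that fit, in either direction.

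The 10 liver genes had a median difference of -0.32 units with 0 under an unadjusted p of 0.05, which rested on BXD70 of the low group. In BXD70 *Alb*, the gene of serum albumin, reached 14.96 units, against at most 10.11 units in any strain of the high group, and without BXD70 the median was 0.02 units. *Alb* had the largest difference of the list (-0.67 units) and *Apoa2*, an apolipoprotein gene, the smallest (-0.21 units). With BXD70 left out, 11 low strains remained. An unadjusted p under 0.05 was reached by 7 of 14 genes on the side of *Dbp* and 3 of 5 on that of *Arntl*. Of all probe sets 6.34% reached it, in either direction, and the lowest adjusted p of these genes was 0.152. With the next strain taken into the low group in place of BXD70, the median difference was 0.20 units on the side of *Dbp* and -0.22 units on that of *Arntl*. The lowest adjusted p of these genes was then 0.0865 in limma.

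Of the 9 brown adipocyte genes 0 stood under an unadjusted p of 0.05, with a median of 0.05 units and a range from -0.23 units for *Dio2*, the deiodinase that activates thyroid hormone, to 0.10 units for *Zic1*, a transcription factor gene of the brown lineage. Their mean level ran from 11.77 to 12.67 units in the high and from 11.91 to 12.79 units in the low group, above the background. The 8 white adipocyte genes had a median of -0.27 units, and of -0.13 units with the mean of the muscle list as a covariate. Of these genes 3 were lower in the high group at an unadjusted p under 0.05 (2.8% of all probe sets were) and 0 passed the adjusted threshold. *Lep*, the gene of leptin, had the largest difference, with 9.43, 10.62 and 12.79 as lowest, median and highest value in the high and 10.82, 11.66 and 13.38 in the low group (-1.15 ± 0.38 units, unadjusted p = 0.00527). In the fit on *Arntl* alone, *Lep* was among the 23 transcripts called, with a slope of 2.38 ± 0.48 units (adjusted p = 0.0367). The smallest difference of the list was that of *Hoxc10*, a homeobox gene, at -0.01 units. The mean level of the list ran from 9.08 to 9.95 units in the high and from 9.34 to 10.43 units in the low group, and its part in the clock differences was not tested.

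Among the other cell types, no list had a gene past the adjusted threshold. The 4 blood genes had a median of -0.14 units, and the lowest was -0.25 units for *Hbb-bs*, a beta globin gene under an unadjusted p of 0.05. The 9 lymphocyte genes (at most 0.12 units, for *Cd3g*), the 7 macrophage genes (-0.25 units for *Itgax* to -0.06 units for *Csf1r*) and the 7 endothelial genes (-0.15 units for *Kdr* to 0.06 units for *Tie1*) had 0 under an unadjusted p of 0.05. In the continuous fit 2 macrophage genes, 1 endothelial gene and 1 blood gene fell at an unadjusted p under 0.05. In that fit 10 of the 12 skeletal muscle and 4 of the 8 white adipocyte genes fell, and 1 of the 9 brown adipocyte genes rose. Of all probe sets 8.54% were under it there, in either direction. As to array-wide measures, the array median was 7.81 against 7.82 units (permutation p = 0.154) and the interquartile range 2.59 units in both groups (permutation p = 0.975). Both are constrained by the rescaling of every array to mean 8 and SD 2, so they say little about differences between arrays. The olfactory receptor median was 5.99 in the high and 6.02 units in the low group (permutation p = 0.2195). The first principal component had means of -4.49 and 3.32 (permutation p = 0.2653).

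Pathways that change with feeding, stress or temperature were compared in the same way, and none had a gene past the adjusted threshold. Over all probe sets, 3.14% were higher and 2.8% lower at an unadjusted p under 0.05. Of the 15 genes of other parts of the clock, such as kinases and coregulators, 1 was higher at an unadjusted p under 0.05, and the list ran from -0.15 to 0.16 units. Of the 10 heat shock and cold-inducible genes 3 were higher, with a median of 0.14 units and a range from -0.10 to 0.92 units. In the continuous fit 1 of the 10 rose and 0 fell at an unadjusted p under 0.05. Of all probe sets 8.54% were under it in that fit, in either direction. The glucocorticoid response list had 1 of 12 lower (median -0.08 units), thermogenesis 1 of 13 higher (median 0.01 units) and cell cycle 1 of 12 lower (median -0.05 units). The immediate early (13 genes, median -0.11 units), fasting and fatty acid oxidation (14 genes, median 0.01 units) and lipogenesis lists (13 genes, median -0.05 units) had 0 under an unadjusted p of 0.05. In the continuous fit 4 glucocorticoid response, 3 cell cycle and 2 immediate early genes fell at an unadjusted p under 0.05, and 0 rose. In that fit 2 thermogenesis genes rose, and of the other parts of the clock 3 rose and 1 fell. The fasting and fatty acid oxidation and lipogenesis lists again had 0. None of these genes passed the adjusted threshold in the continuous fit.

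**Figure D5:**
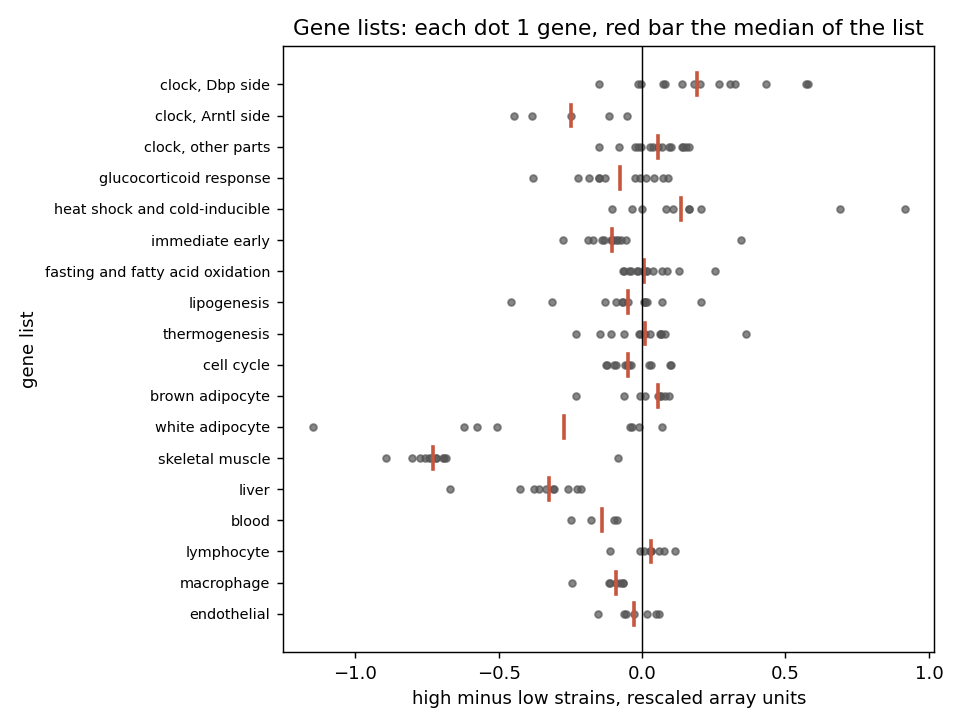
Mean difference of high minus low strains (horizontal axis, rescaled array units) for each gene of the lists, with 1 dot per gene and a red bar at the median of each list. The medians are 0.19 units for the clock list on the side of *Dbp*, -0.25 units for that on the side of *Arntl* and -0.73 units for skeletal muscle.

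*Dbp* and *Arntl* both lie on chromosome 7, so their neighbours on the chromosome were examined as well. Of the 10 protein-coding genes on each side of *Dbp*, 0 of 20 stood under an unadjusted p of 0.05. Of those around *Arntl*, 1 of 20 did, *Tead1*, a transcription factor gene, with -0.36 units (adjusted p = 0.807 in limma). Over all probe sets 5.95% did, so the count of 1 in 20 is near that share. The genes called in the continuous fit lie on other chromosomes, *Per3* on 4, *Evi5* on 5, *Nr1d1* on 11, *Nfil3* on 13 and *Nr1d2* on 14.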

How the data were processed

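The authors provided a matrix of 41345 probe sets and 37 arrays (35 BXD strains, 2 parents). Its deposited values are scores, which the authors rescaled so that every array had mean 8 and SD 2. The submitters' processing notes name Affymetrix Expression Console. The summary method, log base and genome build are not given in the sources used here. The tests had been planned for log-scale values and use the scores as they are. The arrays took 5500 ng of cDNA, made from 100 ng of pooled RNA, and their number limits the precision.

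Left out were 190 array controls and the probe sets of *Dbp* and *Arntl* (1 each). Of several probe sets of a gene, that with the highest BXD mean was used. High and low strains were compared with limma 3.58.1 (lmFit, eBayes) in R 4.3.3, with Benjamini-Hochberg adjustment over 41153 probe sets. Other steps used Python 3.11.15, scipy 1.17.1, pandas 2.3.3 and matplotlib 3.10.9, with 100000 permutations (two-sided). Tested on simulated data for this comparison (41153 probe sets), limma recovered 32%, 82% and 96.5% of 200 probe sets shifted by 0.3, 0.6 and 1 units. False calls among the unshifted probe sets were 4, 9 and 15. The simulated noise was normal and independent between probe sets. With 200 shifted at once the Benjamini-Hochberg adjustment is less strict, so these shares do not hold where only a few genes differ.

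Strains, gene lists and tests were chosen with earlier results of these data known. Of 182 listed genes 177 were matched. A few list members are not reported here on their own but stay in the counts. Named were *Dbp*, *Arntl*, the genes of both clock lists, genes of other lists past the adjusted threshold and the 10 of lowest p per direction past it (none in the comparison of groups), and the largest and smallest difference of each marker list. *Evi5*, *Tead1* and the genes named only in the closing section were chosen after their values were seen. The alternatives were other scalings, group sizes, orderings, covariates, filters and tests, and strains left out.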

Additional observations from a re-analysis of the deposited data

How the results depend on the processing

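The count of transcripts that differ between the groups, 0 in the comparison as reported, was 3 after quantile normalization (*Nr1d1*, *Nr1d2*, *Mir200b*), 10 with the 8 highest against the 8 lowest strains (*Per3*, *Nfil3* and *Nr1d2* among them), 1 with strains ordered by *Dbp* alone, 2 with dim probe sets left out (*Nr1d1*, *Nr1d2*) and 5 in the continuous fit. The genes called on the side of *Dbp* were 2, 2, 0, 2 and 3 in these settings, and those on the side of *Arntl* 0, 1, 0, 0 and 1. With each of the 24 strains left out, a choice made after seeing the data, 0 to 2 transcripts were called, all on the side of *Dbp*: *Nr1d1* and *Nr1d2* without BXD103, *Nr1d1* without BXD66 and *Nr1d2* without BXD96. Centring on the median, 17 against 17 strains, *Arntl* alone, a covariate (the muscle list, or principal component 1), array weights, the t-test and leaving out BXD70 gave 0. Over the settings with groups and the continuous fit itself, the adjusted p ran from 5.95e-05 to 0.728 for *Nr1d1* and from 3.87e-06 to 0.654 for *Nr1d2*. It ran from 0.00806 to 0.9999 for *Nfil3* and from 0.0327 to 0.9999 for *Per3*. Over the alternatives of the continuous fit, it ran from 1.655e-05 to 0.00254 for *Nr1d1* and from 1.225e-07 to 0.0042 for *Nr1d2*. For *Nfil3* it then ran from 0.000799 to 0.136 and for *Per3* from 0.00917 to 0.212. The cause of these shifts was not tested.

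The count of 5 in the continuous fit became 3 with the muscle list and 3 with the first principal component as a covariate (*Nr1d2*, *Nr1d1* and *Nfil3* in both). It was 5 after quantile normalization (the same genes), 4 after centring on the median (*Per3* not called) and 4 with ranks of *Dbp* minus *Arntl* (*Evi5* not called). Without the 2 strains farthest from the median it was 4, of which 3 were shared (*Nr1d2*, *Nr1d1*, *Per3*). Without the 3 highest strains it was 8, of which the same 3 were shared. With each of the 35 strains left out it was 3 to 7. These alternatives were added after the data had been seen. Genes that were not called turned sign near 0. *Usp2* was 0.0074 units after centring on the median, 0.0494 with 8 strains a group, 0.0008 with 17, 0.0087 in the continuous fit, 0.0862 with *Dbp* alone, 0.126 with the muscle covariate, 0.0105 with the first principal component, 0.0083 with array weights and 0.0185 without BXD70. *Cry2* was 0.071 with 8 strains a group, 0.0084 with 17, 0.0358 in the continuous fit, 0.0813 with *Dbp* alone and 0.0452 with the muscle covariate. *Hlf* was -0.0255 with *Arntl* alone and *Wee1* -0.0258 with the muscle covariate. With single strains left out, *Usp2* ran from -0.0629 to 0.0507 and *Cry2* from -0.0461 to 0.0133. The differences of the clock genes were recomputed under the settings with groups and in the continuous fit. The slopes of the 5 called genes were recomputed under the alternatives of the continuous fit. Scaling *Dbp* and *Arntl* by their SD and averaging the probe sets of a gene chose the same strains, and the threshold of 0.01 reused the same fit. These 3 settings could change no value and are counted as kept. Of these 930 values 821 kept direction and side of the threshold, 15 newly passed it, 30 changed sign and 64 no longer passed it (slopes of *Evi5* in 32, of *Per3* in 30 and of *Nfil3* in 2). No paired analysis was possible because no replicate numbers pair the strains.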

Other observations

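Outside the rule for named genes, a few transcripts were looked at after their values had been seen. *Gm4184* had 11.47, 11.73 and 11.94 units as lowest, median and highest value in the high strains and 11.88, 11.98 and 12.31 units in the low strains. 11 of the 12 high strains lay below every low strain in *Gm4184*, and its mean difference was -0.27 ± 0.054 units (adjusted p = 0.404). *Pdcd4*, which encodes an inhibitor of translation initiation, had 11.84, 12.29 and 12.78 units in the high and 11.50, 11.85 and 12.17 units in the low strains, a difference of 0.45 ± 0.095 units (adjusted p = 0.404). *Dtx4*, which encodes a ubiquitin ligase of the Deltex family, had 10.04, 10.23 and 10.35 units in the high and 10.21, 10.57 and 10.91 units in the low strains (-0.29 ± 0.072 units, adjusted p = 0.771).

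The heat shock genes with the largest differences were *Hspa1b*, with 8.50, 10.66 and 11.67 units in the high and 8.68, 9.51 and 10.57 units in the low strains (0.92 ± 0.32 units, adjusted p = 0.807), and *Hspa1a*, with 0.69 ± 0.30 units. These paralogs of the inducible chaperone HSP70 are near-identical, so their probe sets may not tell them apart. Their slopes in the continuous fit were 0.46 ± 0.24 and 0.21 ± 0.23 units per unit of *Dbp* minus *Arntl*. Among brown fat genes *Kcnk3*, which encodes a potassium channel, differed by 0.36 ± 0.13 units (unadjusted p = 0.0123), and in the glucocorticoid list *Zbtb16*, a transcription factor gene, differed by -0.38 ± 0.16 units (unadjusted p = 0.0252).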
